A study of Homo sapiens with 12 samples.

Results

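The genes of homologous recombination, the Fanconi anaemia pathway and mismatch repair were followed in the human glioblastoma line LN229, whose RNA had been hybridised to 12 arrays. Of 40 genes listed by name for these pathways, 31 had a probe set that the platform annotation pairs with 1 gene symbol, out of 14232 genes measured in that way, and each of the 31 had 1 such probe set. BRCA2, RBBP8, FANCA, FANCD2 and MSH3 were not analysed here, and RAD50, ATM, FANCL and PMS2 were not used because their probe sets name several genes. The arrays formed 4 groups of 3: cells in 1% O2 with HIF1A siRNA, cells in 1% O2 with HIF2A siRNA (gene EPAS1), cells in 1% O2 with a non-targeting control siRNA, and cells in 20% O2 with the same control siRNA. All 4 groups were transfected 24 h after seeding, so the cells in 20% O2 carried an siRNA too. They were placed in their oxygen level 48 h later and harvested 16 h after that. All values come from this single cell line, and each is the deposited log2 level of a probe set, so levels were compared between groups and not between genes.

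Homologous recombination repairs breaks of both DNA strands from the sister chromatid: the end is resected by nucleases, a protein filament that searches for the matching sequence is loaded on the resected strand by factors such as BRCA1, BARD1 and PALB2, and helicases take the joined molecules apart. The Fanconi core complex attaches ubiquitin to the FANCI and FANCD2 clamp at crosslinks between the strands and hands the damage to recombination, and mismatch repair removes replication errors in the new strand. Many of these genes are transcribed mainly in late G1 and S phase, when E2F factors are active, and hypoxia is known in cultured tumour cells for lower levels of several recombination genes.

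The labels were first set against the targeted genes. HIF1A measured 8.20, 9.06 and 7.74 with HIF1A siRNA, 11.3, 11.0 and 11.4 with HIF2A siRNA, 11.7, 11.4 and 11.3 in 1% O2 with control siRNA, and 11.6, 11.5 and 11.5 in 20% O2. EPAS1 measured 8.60, 8.08 and 8.02 with HIF1A siRNA, 7.18, 6.99 and 7.18 with HIF2A siRNA, 9.74, 9.57 and 9.83 in 1% O2 with control siRNA, and 8.55, 8.42 and 8.59 in 20% O2. Each targeted gene was thus lowest under its own siRNA, and EPAS1 was also lower under HIF1A siRNA than on every control array in 1% O2. Of the glial and glioma markers, VIM and NES were high, with group means of 12.0 to 12.4 and 9.87 to 10.3, whereas AQP4 lay below the lower quartile of its array on 12 arrays and SLC1A3 on 11. GFAP had group means of 6.23 to 6.57. PTPRC, 1 of 5 immune markers measured, and EPCAM, 1 of 4 epithelial markers, were below the lower quartile on 12 arrays each. Values of the other markers of these lists, and of 4 neuronal and 5 endothelial markers, are not given here. The cell type was therefore taken from the labels. Replicates of a group correlated at 0.983 to 0.994 over all probe sets. The third array with HIF1A siRNA had the narrowest distribution, with an upper quartile of 7.88 against 8.20 to 8.57 on the other 11 arrays. In the comparisons with HIF1A siRNA, the count of repair genes called lower and their median change are given with and without it.

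Promoter sequence was examined for the E2F motif because E2F factors are known regulators of many of these genes. RefSeq promoters (GRCh38.p14, 250 bases before to 50 after the start of transcription) were found for 27 of the 31 genes, and not for FANCI, NBN, RAD54B and WRN. The motif was taken as TTTCCCGC, TTTCGCGC, TTTGCCGC or TTTGGCGC on either strand, and a gene was counted where any of its listed promoters held it. It was present for 5 of the 27 genes (18.5%), against 5.56% of the 11386 measured genes with a promoter in the same table and 3.99% of all 27305 genes in it. The 5 genes were EXO1, MSH6, XRCC2, DMC1 and FANCC. The first 3 were also among the genes lower in 1% O2, and their promoters with a match are shown, with the matched letters in capitals. Other listed promoters of EXO1 and MSH6 held no match and are not shown. EXO1 lies on chr1:241847954-241848253 (plus strand), MSH6 on chr2:47782895-47783194 (plus strand) and XRCC2 on chr7:152676092-152676391 (minus strand, shown 5′ to 3′ along the gene).
EXO1: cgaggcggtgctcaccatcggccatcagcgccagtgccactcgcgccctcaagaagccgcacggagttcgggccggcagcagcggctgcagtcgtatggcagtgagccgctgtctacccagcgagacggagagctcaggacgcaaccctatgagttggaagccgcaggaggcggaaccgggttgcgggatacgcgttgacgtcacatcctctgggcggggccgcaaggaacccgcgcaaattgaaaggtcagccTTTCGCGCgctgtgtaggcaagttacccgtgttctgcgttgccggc
MSH6: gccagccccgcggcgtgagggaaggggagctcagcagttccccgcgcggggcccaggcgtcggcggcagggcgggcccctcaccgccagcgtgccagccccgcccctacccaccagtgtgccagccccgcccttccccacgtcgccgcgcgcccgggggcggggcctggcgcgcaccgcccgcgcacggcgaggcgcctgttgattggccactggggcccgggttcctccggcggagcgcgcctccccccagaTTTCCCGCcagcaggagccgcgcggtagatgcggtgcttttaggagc
XRCC2: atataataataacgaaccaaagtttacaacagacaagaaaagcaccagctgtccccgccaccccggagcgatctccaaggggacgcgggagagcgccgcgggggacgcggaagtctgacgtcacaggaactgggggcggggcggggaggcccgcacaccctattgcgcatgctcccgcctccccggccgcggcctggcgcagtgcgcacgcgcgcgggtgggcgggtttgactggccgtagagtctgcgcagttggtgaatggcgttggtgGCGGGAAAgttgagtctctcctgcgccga
The match starts at transcribed base 5 in EXO1, base 4 in MSH6 and base 22 in XRCC2, where it is on the opposite strand. Counted from the start, FANCC held matches from bases -172 and -46, and the meiotic recombinase gene DMC1 held overlapping matches from bases -6 and -2. The other 7 of the 10 genes that were lower in 1% O2, RAD54L and RAD51AP1 among them, had none of these letters in the window. The hypoxia response motif core (ACGTG or GCGTG, either strand), which HIF proteins bind, was present for 22 of the 27 genes (81.5%), against 63.8% of the measured genes with a promoter. A CCAAT box was present for 48.1% of the 27 against 43.0%, and the cell cycle element CHR (TTTGAA or TTCGAA) for 7.41% against 17.5%.

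In 1% O2 with control siRNA, 10 of the 31 repair genes were lower than in 20% O2 and none was higher (limma, a moderated linear model over all 12 arrays and all 14232 genes, Benjamini-Hochberg adjusted p under 0.05). Among all genes 8.95% were called lower and 3.37% higher. The median log2 change was -0.53 over the 31 genes and -0.03 over all genes. Of the 31 changes 27 were negative, against 7993 of 14232 over all genes. For 22 of the 31 genes all 3 arrays in 1% O2 lay below all 3 in 20% O2, a pattern seen for 26.3% of all genes. Each array reads RNA from a whole culture, so fewer cells in the cycle stages that express these genes and less RNA per cell cannot be told apart. The heat map of all 31 genes gives the deviation of every array from the mean in 20% O2.

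**Figure D1:**
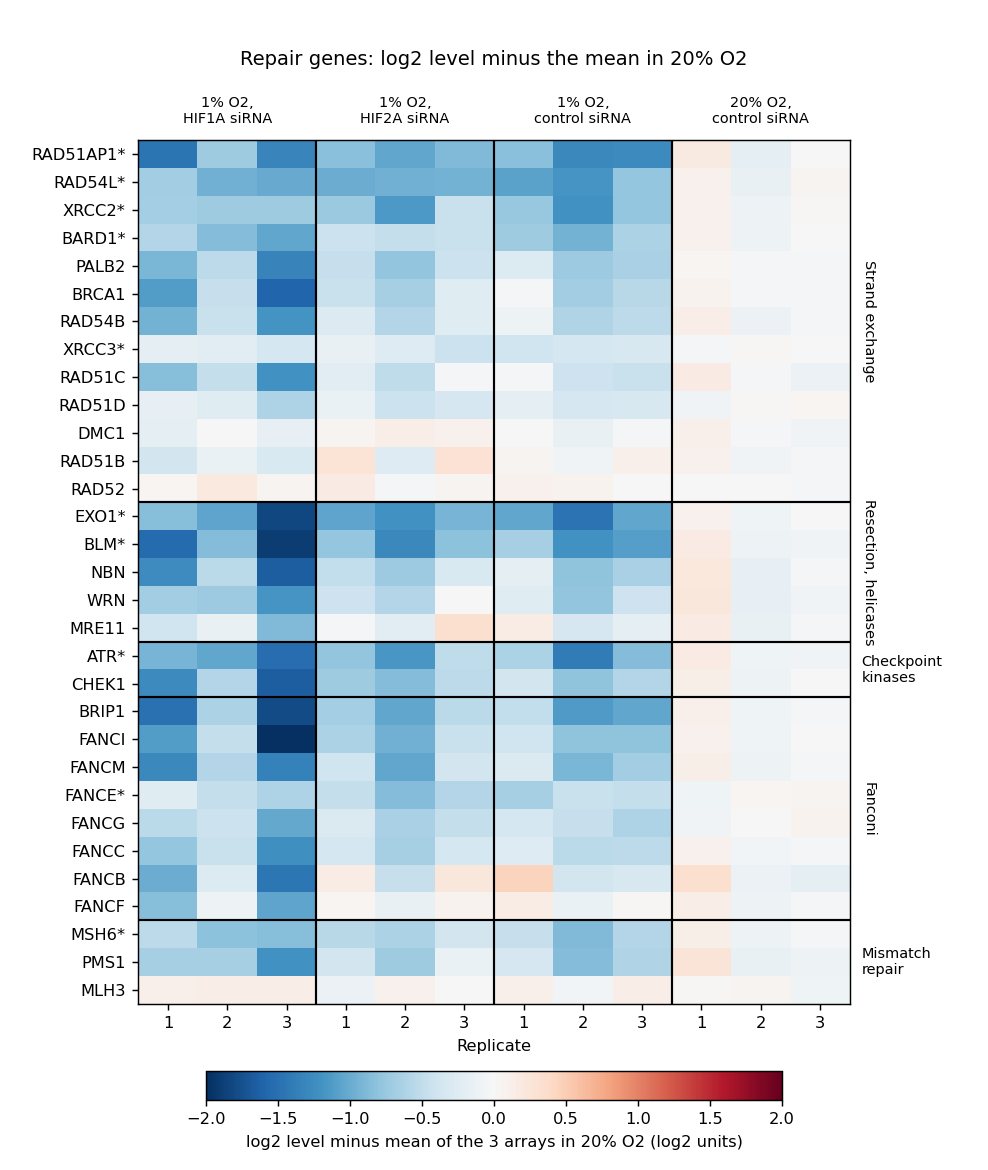
Each cell is the log2 level of a repair gene (row, ordered by role and then by hypoxia change) on 1 array (column, by group and replicate) minus the mean of the 3 arrays in 20% O2, and an asterisk marks the 10 genes called lower in 1% O2 with control siRNA. The third array with HIF1A siRNA is the darkest blue column, and the rows of DMC1, RAD52 and MLH3 stay near white.

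The genes of strand exchange held 5 of the 10 calls, out of 13 measured. RAD51AP1, which stimulates strand pairing in recombination, measured 8.38, 7.93 and 7.94 in 1% O2, against 9.40, 9.02 and 9.22 in 20% O2, and fell by 1.13 on the log2 scale (SE 0.20, limma adjusted p = 0.0042). RAD54L, a motor protein that remodels the joint between filament and template, measured 7.15, 7.04 and 7.44 in 1% O2, against 8.31, 8.07 and 8.27 in 20% O2, and was 2.01-fold lower (SE 0.13 on the log2 scale, limma adjusted p = 7e-04). In both genes every array in 1% O2 lay below every array in 20% O2. XRCC2, which helps to load the recombination filament, measured 7.08, 6.62 and 7.06 in 1% O2, against 7.91, 7.72 and 7.85 in 20% O2, a change of -0.91 (SE 0.17, limma adjusted p = 0.0068). BARD1, the partner of BRCA1 in its ubiquitin ligase, measured 8.63, 8.39 and 8.71 in 1% O2, against 9.42, 9.24 and 9.34 in 20% O2, a change of -0.76 (SE 0.13, limma adjusted p = 0.0035). The fifth call had the smallest size. XRCC3, which works with RAD51C in recombination, measured 6.40, 6.46 and 6.49 in 1% O2, against 6.78, 6.83 and 6.82 in 20% O2, a change of -0.36 (SE 0.10, limma adjusted p = 0.0318).

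The other 8 strand exchange genes did not pass the test. PALB2, which bridges BRCA1 and BRCA2, had a log2 change of -0.55 (95% interval -0.98 to -0.13), and its 3 arrays in 1% O2 lay below those in 20% O2. BRCA1 itself measured 7.67, 7.01 and 7.16 in 1% O2, against 7.77, 7.68 and 7.67 in 20% O2, so that the first array in 1% O2 lay level with 2 of the arrays in 20% O2. Its log2 change was -0.43 (95% interval -0.98 to 0.13). The log2 change was -0.41 for the motor protein gene RAD54B, -0.30 for the filament loading gene RAD51C and -0.28 for RAD51D. Values near 0 were measured for RAD51B (0.03), the annealing protein gene RAD52 (0.05) and DMC1 (-0.06). DMC1 lay below the lower quartile of its array on all 12 arrays and RAD51B on 3, so a change in DMC1 could hardly be read.

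Of 5 genes for resection and unwinding, 2 were lower. EXO1, the exonuclease that extends resection and also removes the faulty strand in mismatch repair, had the largest change of the 31 genes. It measured 8.99, 8.55 and 8.98 in 1% O2, against 10.10, 9.94 and 10.03 in 20% O2, and was 2.27-fold lower (log2 change -1.18, SE 0.22, limma adjusted p = 0.0060). BLM, the RecQ helicase that dissolves recombination intermediates, measured 7.28, 6.73 and 6.85 in 1% O2, against 8.11, 7.85 and 7.87 in 20% O2 (log2 change -0.99, SE 0.25, limma adjusted p = 0.0245). For both genes the groups were fully apart. The log2 change was -0.49 for the helicase gene WRN and -0.55 for NBN, the signalling subunit of the MRE11 complex, neither past the test. MRE11, the nuclease subunit, had overlapping groups and a log2 change of -0.13 (95% interval -0.57 to 0.32).

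ATR, the kinase that senses stretches of unpaired DNA at stalled forks, measured 6.91, 6.16 and 6.69 in 1% O2, against 7.71, 7.47 and 7.48 in 20% O2. Its log2 change was -0.96 (SE 0.23, limma adjusted p = 0.0188), and its second array in 1% O2 lay apart below the other 2. CHEK1, the kinase that ATR activates, measured 8.91, 8.46 and 8.68 in 1% O2, against 9.38, 9.17 and 9.26 in 20% O2. The CHEK1 groups did not overlap, but its change of -0.59 did not pass the test (SE 0.23, limma adjusted p = 0.125).

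Of 8 Fanconi genes, 1 was called. FANCE, the core complex subunit that contacts FANCD2, measured 6.61, 6.83 and 6.80 in 1% O2, against 7.18, 7.31 and 7.33 in 20% O2, a change of -0.53 (SE 0.13, limma adjusted p = 0.0239). BRIP1, a helicase that binds BRCA1, had the largest change of the Fanconi genes but missed the threshold. It measured 8.23, 7.59 and 7.68 in 1% O2, against 8.83, 8.64 and 8.69 in 20% O2, a change of -0.89 (SE 0.27, limma adjusted p = 0.0556). The log2 change was -0.67 for the clamp subunit FANCI and -0.63 for the fork translocase FANCM, both uncalled. Of the other core complex genes, none passed: the estimates were -0.48 for FANCG, -0.44 for FANCC, -0.08 for FANCB (95% interval -0.78 to 0.61) and 0.01 for FANCF (95% interval -0.43 to 0.46). Differences between genes were not tested.

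Of 3 mismatch repair genes, 1 was called. MSH6, which recognises mispaired bases, measured 8.19, 7.76 and 8.05 in 1% O2, against 8.76, 8.54 and 8.62 in 20% O2, a change of -0.64 (SE 0.14, limma adjusted p = 0.0122). PMS1, whose part in human mismatch repair is small, had a log2 change of -0.60 and did not pass the test. MLH3, a gene of the same family, had one of 0.06 and lay below the lower quartile of its array on all 12 arrays.

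**Figure D2:**
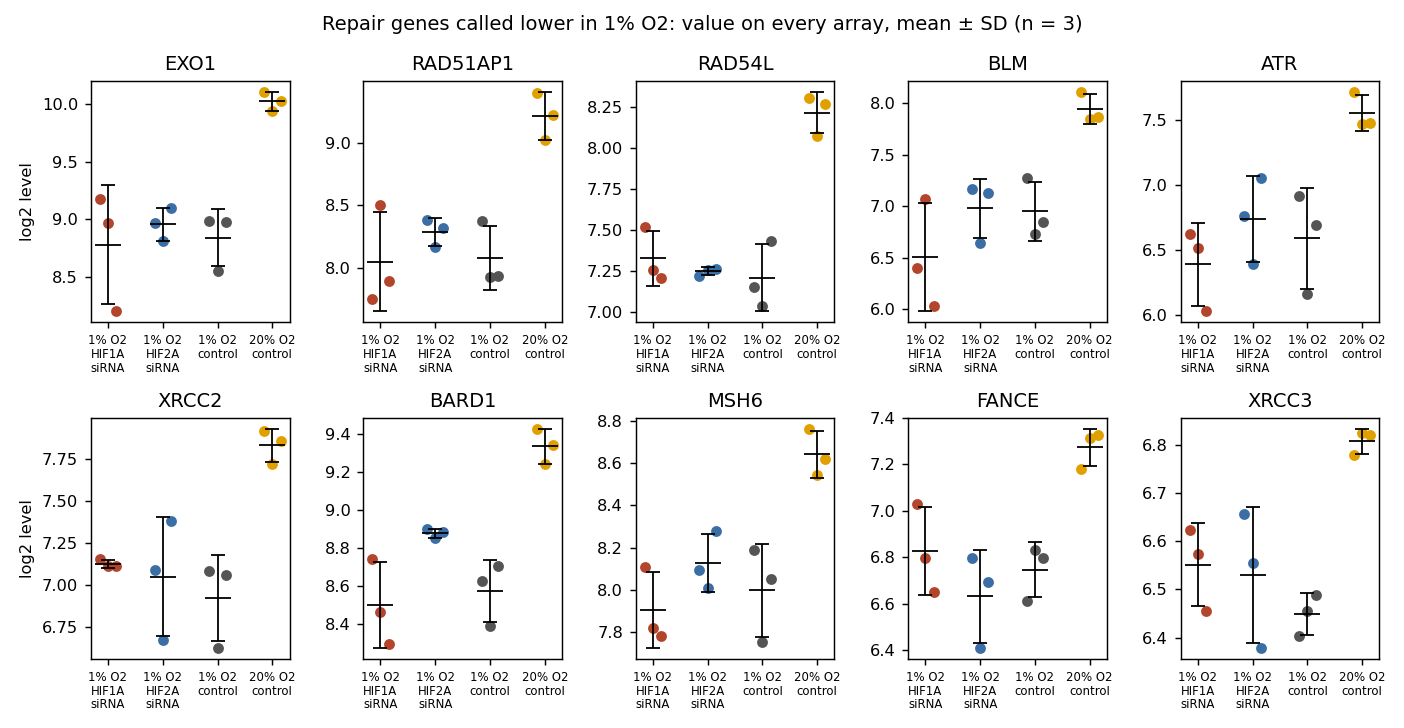
Points are the log2 level on each of the 12 arrays for the 10 repair genes called lower in 1% O2 with control siRNA, and bars give the mean ± SD of the 3 arrays of a group, with a separate vertical scale for each gene. In every panel the 3 arrays in 20% O2 lie above all arrays in 1% O2.

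The size of the count depended on single arrays. BARD1, EXO1, RAD51AP1, RAD54L and XRCC2 passed in each of 12 fits that left out 1 array. The other 5 calls were lost in some of these fits: ATR without the second control array in 1% O2 or the first or the third in 20% O2, BLM in 5 fits (without the second or the third control array in 1% O2 or any array in 20% O2), MSH6 without the second control array in 1% O2 or the first in 20% O2, and FANCE and XRCC3 without each of the 6 arrays compared in turn. The count of lower genes was 5 without the second control array in 1% O2, 5 without the first and 6 without the third array in 20% O2, and 16 without the third HIF1A siRNA array, which enters this comparison only through the shared spread. The share of all genes called lower moved too: it was 3.53%, 3.63% and 3.91% in the first 3 of these fits and 13.2% without the third HIF1A siRNA array. An unadjusted p under 0.05 was reached by 19 of the 31 genes, all with negative changes, and by 25.6% of all genes in either direction.

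Other gene lists moved in the same comparison, where 8.95% of all genes were called lower and 3.37% higher. Of 30 genes of G1/S and DNA replication, 24 were lower and none was higher, with a median log2 change of -0.96. Of 18 mitotic genes, 4 were lower, with a median of -0.51, close to the -0.53 of the repair genes. Among the E2F and RB family genes and their partners, E2F1 (-0.42), E2F2 (-1.09), E2F3 (-1.14) and E2F8 (-0.82) were lower, as was the cyclin kinase inhibitor gene CDKN1A (-0.51), 5 of 16 in all. The part of the cell cycle in the repair gene changes was not tested.

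Of 47 further genes of recombination, the Fanconi pathway and mismatch repair, 8 (17%) were lower in 1% O2 with control siRNA and none was higher. Among all genes 8.95% were lower. The median log2 change of the 47 was -0.34. Their count fell to 4 without the second control array in 1% O2, or the first or the second array in 20% O2. In these fits 3.53%, 3.63% and 5.72% of all genes were lower. It rose to 16 without the third HIF1A siRNA array, where 13.2% of all genes were. CLSPN, the adaptor through which ATR activates CHEK1, fell by 1.35 on the log2 scale (limma adjusted p = 0.0027), and UBE2T, the ubiquitin conjugating enzyme of the Fanconi core complex, fell by 1.14 (limma adjusted p = 0.0028). RAD1, a subunit of the checkpoint clamp, fell by 0.89, RPA2, a subunit of the protein that coats unpaired DNA, by 0.87, and MND1, known from meiotic strand exchange, by 0.86. The plot of changes by list sets these beside the other repair pathways.

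**Figure D3:**
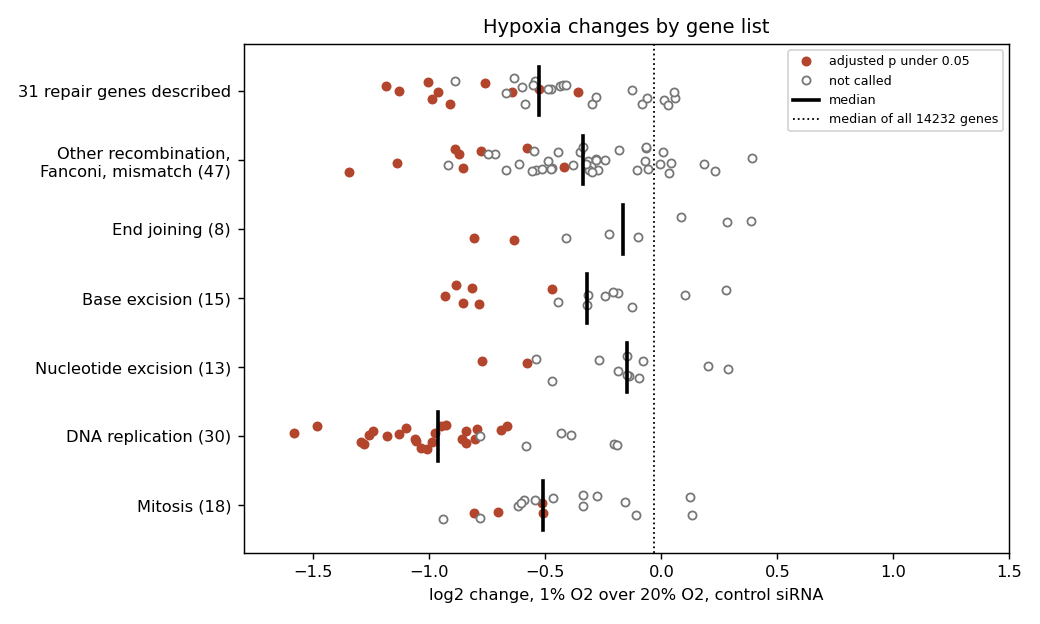
Each point is the log2 change of a gene in 1% O2 over 20% O2 with control siRNA, filled where called, in 7 lists with their numbers of genes; black bars are list medians and the dotted line the median of all 14232 genes, and vertical jitter has no meaning. The replication list has the lowest median (-0.96), the repair genes described here sit at -0.53, and no called gene lies to the right of 0.

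The next question was whether lowering either HIF subunit in 1% O2 changed these genes. With HIF1A siRNA against control siRNA in 1% O2, none of the 31 genes was called in either direction, while 10.2% of all genes were called lower and 0.857% higher (limma). At an unadjusted p under 0.05 there were 7 of 31, against 30.6% of all genes. The median log2 change was -0.29, against -0.05 over all genes. Without the third HIF1A siRNA array the median was -0.13, against 0.004 over all genes, and 3.79% of all genes and none of the 31 were called lower. After quantile normalization the median was -0.16, against 0.07 over all genes, and with both changes together it was -0.0074, against 0.07. FANCF, an adaptor subunit of the Fanconi core complex, was closest to the threshold. It measured 5.91, 6.65 and 5.71 with HIF1A siRNA, against 6.90, 6.63 and 6.79 with control siRNA, a change of -0.68 (SE 0.20, limma adjusted p = 0.0541). The second HIF1A siRNA array overlapped with the controls, as it did for FANCB, BRCA1, NBN, CHEK1 and RAD54B. FANCB, another core complex subunit, measured 4.91, 5.62 and 4.45 with HIF1A siRNA, against 6.33, 5.53 and 5.57 with control siRNA, a change of -0.82 (SE 0.31, limma adjusted p = 0.111). BRCA1 (-0.62), NBN (-0.60), CHEK1 (-0.58), RAD51C (-0.55) and RAD54B (-0.45) were the other 5 at an unadjusted p under 0.05. RAD51C and the dim RAD51B were the 2 genes whose HIF1A siRNA arrays all lay below the controls, a pattern of 19.8% of all genes.

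The further differences of the genes called lower in hypoxia were not all alike under HIF1A siRNA, and none was called. BLM measured 6.41, 7.07 and 6.04 with HIF1A siRNA, a change of -0.45 against control siRNA in 1% O2 (95% interval -0.99 to 0.10), and ATR had a change of -0.20 (95% interval -0.70 to 0.30). EXO1 measured 9.18, 8.97 and 8.20 with HIF1A siRNA, a change of -0.06 against control siRNA in 1% O2 (95% interval -0.54 to 0.42). RAD54L measured 7.52, 7.26 and 7.21, a change of 0.12 (95% interval -0.16 to 0.40), and XRCC2 7.15, 7.11 and 7.11, a change of 0.21 (95% interval -0.18 to 0.59). XRCC2 was the only gene of the 31 whose HIF1A siRNA arrays all lay above the controls, against 11.0% of all genes. Over the 31 genes the 95% intervals ran from -1.51 (FANCB) to 0.59 (XRCC2). Without the second HIF1A siRNA array, 12 genes were called lower, where 17.2% of all genes were: BLM, BRCA1, BRIP1, CHEK1, FANCB, FANCC, FANCF, FANCI, NBN, PALB2, RAD51C and RAD54B.

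With HIF2A siRNA against control siRNA in 1% O2, again none of the 31 genes was called, and 1 gene of 14232 (0.00703%) was called at all (limma). This was EPAS1, the target of the siRNA, with a log2 change of -2.59. The median log2 change of the 31 genes was 0.05, and 1 repair gene had an unadjusted p under 0.05, against 3.53% of all genes. That gene was BARD1, at 8.90, 8.85 and 8.88 with HIF2A siRNA, against 8.63, 8.39 and 8.71 with control siRNA, a change of 0.30 (SE 0.13, limma adjusted p = 1.0). BARD1 and the dim DMC1 had all HIF2A siRNA arrays above the controls, against 4.46% of all genes, and no gene was called higher (0% of all genes). The 95% intervals over the 31 genes ran from -0.71 (FANCI) to 0.75 (FANCB).

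Setting HIF1A siRNA directly against HIF2A siRNA in 1% O2 tests whether the siRNAs differ. None of the 31 genes was called, against 8.53% of all genes called lower and 0.899% higher (limma), and 11 had an unadjusted p under 0.05, a share close to the 32.3% of all genes. FANCB had a change of -0.87 (limma adjusted p = 0.0958), FANCF of -0.66 (limma adjusted p = 0.0635) and RAD51C of -0.60 (limma adjusted p = 0.0737). The median was -0.37, against -0.06 over all genes. Without the third HIF1A siRNA array it was -0.19, against -0.0049 over all genes, and 2.69% of all genes and none of the 31 were called lower; with quantile normalization as well it was -0.09, against 0.07. The count was 11 without the second HIF1A siRNA array, 1 without the first (BARD1), and 2 without the second HIF2A siRNA array (RAD51B and RAD51C), where 16.4%, 11.9% and 10.7% of all genes were called lower.

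Against 20% O2, cells in 1% O2 with HIF1A siRNA had 24 of 31 repair genes lower and none higher, where 30.4% of all genes were called lower and 4.67% higher (limma). The median log2 change was -0.85, against -0.12 over all genes. This comparison and that of control siRNA share the 3 arrays in 20% O2, so their values are given side by side and no overlap was tested. All 8 Fanconi genes were called, although only FANCE was with control siRNA, and a difference in calls is no test of a difference. BRIP1 stood at -1.30 with HIF1A siRNA and -0.89 with control siRNA, FANCI at -1.24 and -0.67, and FANCM at -1.07 and -0.63. FANCB stood at -0.90 with HIF1A siRNA and -0.08 with control siRNA, FANCC at -0.81 and -0.44, FANCF at -0.67 and 0.01, FANCG at -0.67 and -0.48, and FANCE at -0.45 and -0.53. The direct test of the siRNAs, given above, called none of these genes. Both kinases were called, CHEK1 at -1.17 and ATR at -1.16. BLM had the largest change of the 31 genes.

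BLM measured 6.41, 7.07 and 6.04 with HIF1A siRNA, against 8.11, 7.85 and 7.87 in 20% O2, a change of -1.44 (SE 0.25, limma adjusted p = 0.0038). FANCI measured 8.77, 9.41 and 7.79 with HIF1A siRNA, against 9.98, 9.81 and 9.89 in 20% O2, and NBN 6.90, 7.62 and 6.49, against 8.36, 7.98 and 8.10. In each of these the third HIF1A siRNA array was lowest and the second highest, and all 3 lay below 20% O2. BRCA1 measured 6.59, 7.24 and 6.13 with HIF1A siRNA, against 7.77, 7.68 and 7.67 in 20% O2, and was called here at -1.05 (SE 0.25, limma adjusted p = 0.0108). In strand exchange, 8 of 13 genes were called, namely RAD51AP1 (-1.16), BRCA1, PALB2 (-0.92), RAD54L (-0.89), RAD54B (-0.86), RAD51C (-0.85), BARD1 (-0.83) and XRCC2 (-0.70). In resection and unwinding BLM, EXO1 (-1.24), NBN (-1.15) and WRN (-0.87) were called, and in mismatch repair PMS1 (-0.85) and MSH6 (-0.74). The 7 genes that did not pass were MRE11 (-0.48), RAD51D (-0.34), RAD51B (-0.27), XRCC3 (-0.26), DMC1 (-0.12), RAD52 (0.10) and MLH3 (0.13). RAD52 was called higher under all 3 other scalings and the dim MLH3 after median centring. Under these scalings 1795 to 2882 of all 14232 genes were called higher. In 28 of the 31 genes the HIF1A siRNA arrays all lay below 20% O2, against 37.8% of all genes.

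**Figure D4:**
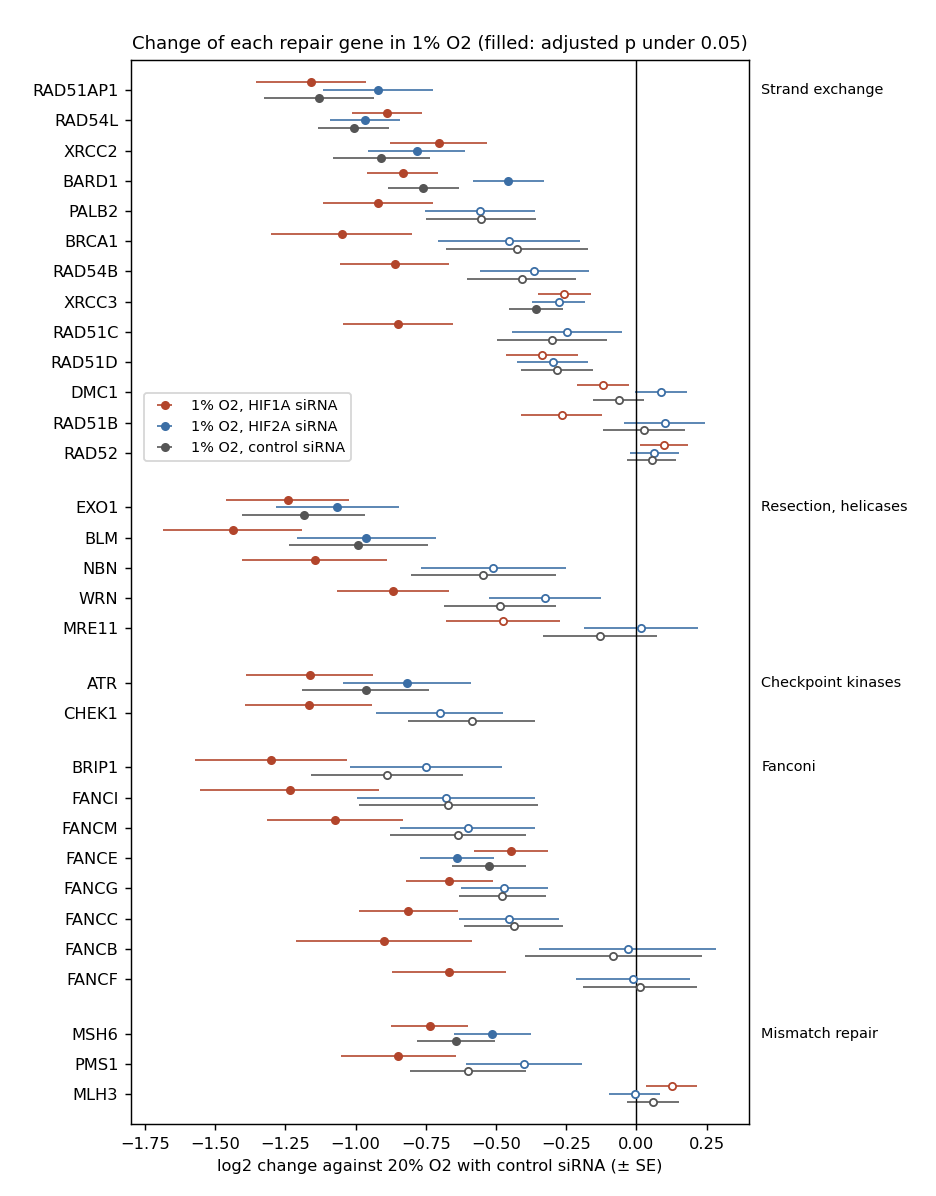
Points are the log2 change of each repair gene against 20% O2 with control siRNA, with SE bars, in 1% O2 with HIF1A siRNA, HIF2A siRNA and control siRNA, and filled points passed the adjusted p of 0.05. EXO1, RAD54L and RAD51AP1 have overlapping bars in all 3 groups, while for FANCF and FANCB the HIF1A siRNA point lies at -0.67 and -0.90 and the other 2 near 0.

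The third HIF1A siRNA array moved with these results. It was the lowest of the 3 HIF1A siRNA arrays for 26 of the 31 genes and the lowest of all 12 arrays for 21. The same was not counted over all genes, whose median deviation from 20% O2 was also lowest on this array. The median deviation of the repair genes from 20% O2 was -0.77, -0.48 and -1.19 on the first, the second and the third HIF1A siRNA array. On the same arrays it was -0.90, -0.73 and -1.41 for replication genes, -0.70, -0.57 and -1.37 for mitotic genes, and -0.03, -0.09 and -0.25 for all genes. Without the third array 21 repair genes and 17.1% of all genes were called lower, with a median change of -0.70 over the repair genes, and after quantile normalization 20 repair genes and 14.6% of all genes were, without FANCB, FANCE, FANCG and XRCC2. With both changes together 5 were called (ATR, BLM, EXO1, RAD51AP1 and RAD54L), with a median of -0.46, and 5.74% of all genes were called lower. The calls of FANCI and PMS1 were lost without the first array in 20% O2, FANCE without any array in 20% O2 or the third HIF1A siRNA array, FANCF without array 1 or array 3 of either group, and FANCB in 9 of the 12 fits that left out 1 array (all but those without the first control array in 1% O2, the second HIF1A siRNA array or the second HIF2A siRNA array).

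**Figure D5:**
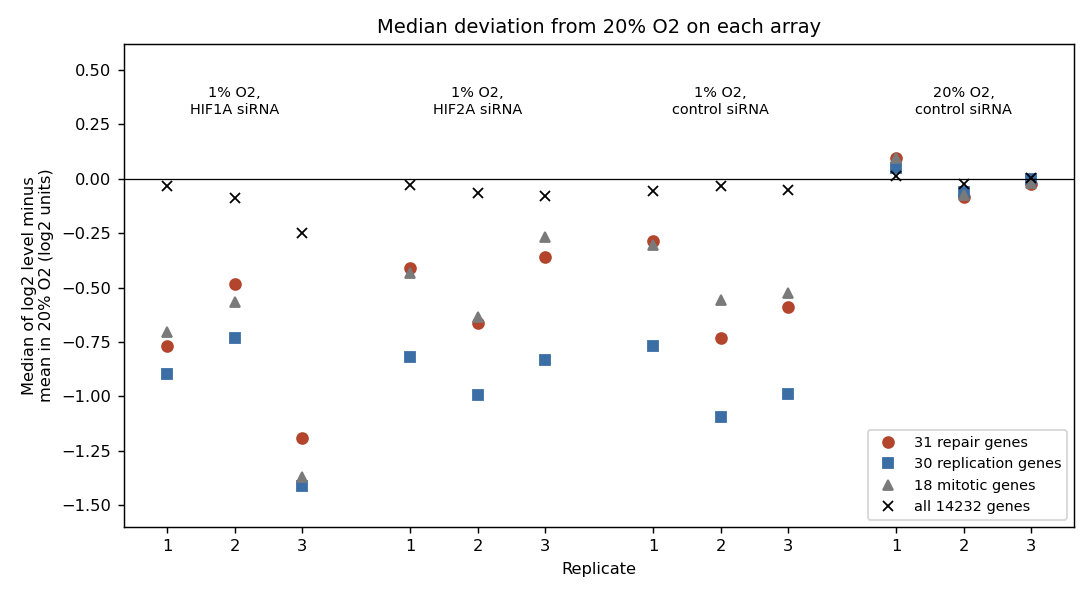
Each symbol is, for 1 array, the median over a gene list of the log2 level minus the mean in 20% O2, for 31 repair genes, 30 replication genes, 18 mitotic genes and all 14232 genes. The repair genes lie at -1.19 on the third HIF1A siRNA array, the lowest of the 12, and between -0.77 and -0.29 on the other 8 arrays in 1% O2.

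Cells in 1% O2 with HIF2A siRNA had 9 of 31 repair genes lower than in 20% O2 and none higher, where 6.79% of all genes were called lower and 2.85% higher (limma). The median log2 change was -0.46. EXO1 measured 8.97, 8.81 and 9.10 with HIF2A siRNA, against 10.10, 9.94 and 10.03 in 20% O2 (change -1.06, SE 0.22, limma adjusted p = 0.0117). RAD54L measured 7.22, 7.26 and 7.27, against 8.31, 8.07 and 8.27 (change -0.97, SE 0.13, limma adjusted p = 0.0011). The RAD54L arrays with HIF2A siRNA lay close together (SD 0.02, n = 3). BLM (-0.96), RAD51AP1 (-0.92), ATR (-0.82), XRCC2 (-0.78), FANCE (-0.64), MSH6 (-0.51) and BARD1 (-0.46) made up the rest. MSH6 and BARD1 lost their calls after quantile normalization and after cyclic loess, so that 7 genes were lower under each. There 6.34% and 6.92% of all genes were lower. After median centring 11 genes were lower, where 8.28% of all genes were. RAD54L alone passed in all 12 fits that left out 1 array: the count was 1 without the second HIF2A siRNA array, 2 without the first array in 20% O2 (RAD54L and FANCE) or the third (RAD54L and EXO1), 5 without the second array in 20% O2 and 5 without the first HIF2A siRNA array (both without ATR, BARD1, BLM and MSH6), and 14 without the third HIF1A siRNA array. The share of all genes called lower ran from 2.44% to 10.6% over these fits. ATR, BARD1 and MSH6 were also lost without the third control array in 1% O2, ATR and BARD1 without the second HIF1A siRNA array, BLM and BARD1 without the third HIF2A siRNA array, and BARD1 without the first control array in 1% O2.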

How the data were processed

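Total RNA of LN229 cells, purified by Qiagen kit, was labelled for Affymetrix arrays by whole transcript sense target labelling, per the labels' protocols. The deposited values are 1 log2 level per probe set and array for 22011 probe sets; the authors' processing notes name Partek and hg18, while the steps before deposit (background, summarisation, scaling) are not stated by any label, header or note used here. Base 2 was read from the range of the values, 1.14 to 14.3. The values were used as deposited, and the number of arrays limits the precision.

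The platform annotation pairs 14432 probe sets with 1 symbol, 2408 with several and 5171 with none; 14404 gene identifiers were found in RefSeq and no symbol changed. The probe set with the highest mean was kept for each of 14232 genes (197 had several). A mean per group was fitted over all 12 arrays with limma 3.58.1 in R 4.3.3, with empirical Bayes moderation and Benjamini-Hochberg adjustment over all 14232 genes, in 6 comparisons, and calls were made at an adjusted p under 0.05. Motifs were searched and figures drawn with Python 3.11.15 and matplotlib 3.10.9. On simulated data for the hypoxia comparison, 86.6% of genes changed 2-fold and 44.8% of those changed 1.5-fold were recovered. The simulation changed 67 genes at each of these sizes and drew the noise of each gene independently. In the data 1754 genes were called, and shifts of many genes together on an array were not simulated. These shares therefore need not hold for the data.

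Members and gene lists were chosen with earlier results of these data known. Every analysed member is named with its hypoxia change, array values are given for called members (up to 10 per comparison by size) and neighbours of their complexes, and of other lists up to 5 called genes per comparison. Values of genes that were not called under a siRNA were chosen after they were seen. The replicate numbers come from the labels, and they do not say whether replicates were separate cultures: the p-values reflect the spread among these arrays, possibly only technical. No scan dates were used. Alternatives covered the scaling, the dim gene filter, the probe set rule, the arrays in the fit, the variance trend, a replicate block and each array left out; quantile normalization without the third HIF1A siRNA array was added after the data were seen.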

Additional observations from a re-analysis of the deposited data

How the results depend on the processing

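The counts of repair genes called lower, which were 10 for control siRNA, 24 for HIF1A siRNA and 9 for HIF2A siRNA in 1% O2 against 20% O2, and 0 in the 3 comparisons within 1% O2, moved with the arrays and the scaling, as did the share of all genes called. With 1 array left out in turn they ranged from 5 to 16, 19 to 25 and 1 to 14 against 20% O2. The share of all genes called lower ran from 3.53% to 13.2%, 15.5% to 32.2% and 2.44% to 10.6% over the same fits. For HIF1A siRNA against control siRNA the count ranged from 0 to 12, and the share of all genes from 2.57% to 17.2%. For HIF2A siRNA against control siRNA it stayed at 0, with 0.00703% of all genes. For HIF1A siRNA against HIF2A siRNA the count ranged from 0 to 11, and the share of all genes from 1.78% to 16.4%. The counts of repair genes called higher stayed at 0 in these fits. With only the 2 groups compared in the fit, 17 were lower with control siRNA, 21 with HIF1A siRNA and 16 with HIF2A siRNA against 20% O2. With dim genes left out, which reduces the genes adjusted over to 11721, 1 gene (FANCF) was lower with HIF1A siRNA than with control siRNA. The share of all genes called was not counted in these settings or with replicate number as a block. With HIF1A siRNA against 20% O2, 1 gene was higher after quantile normalization (RAD52), 1 after cyclic loess (RAD52) and 2 after median centring (RAD52 and MLH3), and 5 were lower with quantile normalization and the third HIF1A siRNA array left out together. XRCC3 in hypoxia missed the threshold after median centring (adjusted p = 0.0543). Scaling moved the split of calls over all genes: in hypoxia with control siRNA, 27.4% of calls were higher as deposited, 44.1% after quantile normalization, 45.1% after cyclic loess and 34.8% after median centring, while the median change of the repair genes was -0.41, -0.42 and -0.47 under the 3 scalings. For HIF1A siRNA against 20% O2, 13.3% of calls were higher as deposited, 51.8% after quantile normalization, 44.8% after cyclic loess and 46.6% after median centring, and the median of all genes moved by over 0.1 to 0.08 after quantile normalization, with the repair genes at -0.56. With replicate number as a block the counts were 10, 23 and 9 lower against 20% O2 and 0 in the other 3 comparisons; same-numbered arrays had correlations of their deviations from -0.29 to 0.42, so the numbers were not taken as pairs. In hypoxia, 3 uncalled genes turned sign: with 1 array left out in turn FANCB ranged from -0.34 to 0.077, FANCF from -0.052 to 0.085 and RAD51B from -0.0089 to 0.079. Which property of the arrays left out moved these counts was not tested. The single-symbol rule left 9 of the 40 genes out, and DMC1 and MLH3 were too dim for a change to be read.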

Other observations

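Other repair pathways were read in the same arrays. In 1% O2 with control siRNA against 20% O2, 8.95% of all genes were called lower and 3.37% higher. Of 15 base excision genes, 6 (40%) were lower and none was higher (median log2 change -0.32). PARP1, which senses breaks of a single strand, fell by 0.93 on the log2 scale (limma adjusted p = 0.0027), the glycosylase NEIL3 by 0.89 (limma adjusted p = 0.0107), UNG, which removes uracil, by 0.86 (limma adjusted p = 0.0048), PARP2 by 0.82 and MBD4, which removes thymine from mispairs with guanine, by 0.79. Of 8 end joining genes, 2 (25%) were lower, namely XRCC4 (-0.81) and its partner ligase LIG4 (-0.64). Of 13 nucleotide excision genes, 2 (15.4%) were lower, the TFIIH subunits GTF2H5 (-0.77) and ERCC3 (-0.58). The list medians were -0.16 for end joining and -0.15 for nucleotide excision, against -0.03 over all genes. Whether these lists differ from all genes was not tested.

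With HIF1A siRNA against control siRNA in 1% O2, 2 of the 47 further recombination, Fanconi and mismatch repair genes, 1 of 15 base excision genes, 1 of 8 end joining genes and 1 of 13 nucleotide excision genes were lower, where 10.2% of all genes were. ERCC5, the nuclease that cuts on the 3′ side in nucleotide excision, fell by 0.87 (limma adjusted p = 0.0396). BRCC3 (-0.63) and BABAM1 (-0.50), both of the BRCA1-A complex, POLB (-0.57), the gap filling polymerase of base excision, and POLL (-0.39), a polymerase of end joining, were lower. The calls of BRCC3 and BABAM1 depended on the scaling and the arrays. None of the 47 was lower after quantile normalization or cyclic loess, where 7.9% and 8.31% of all genes were. Without the third HIF1A siRNA array none was either, where 3.79% of all genes were. Without the second HIF1A siRNA array 8 were, where 17.2% of all genes were. POLB was also lower with HIF1A siRNA than with HIF2A siRNA (-0.71, limma adjusted p = 0.0153). Against 20% O2, 35 of the 47 further recombination, Fanconi and mismatch repair genes were lower with HIF1A siRNA, where 30.4% of all genes were. Without the third HIF1A siRNA array 20 of the 47 were, where 17.1% of all genes were. With HIF2A siRNA 5 of the 47 (10.6%) were lower, where 6.79% of all genes were. Of the 30 replication genes, 27 were lower with HIF1A siRNA (25 without the third HIF1A siRNA array) and 24 with HIF2A siRNA. CLSPN changed by -1.53 with HIF1A siRNA and by -1.34 with HIF2A siRNA.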
